A study of Mus musculus with 19 samples.

Results

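miR-296 and miR-298 are microRNAs made from a pair of neighbouring precursors, Mir296 and Mir298, beside the imprinted Gnas gene on mouse chromosome 2. All rows named for either miRNA were taken, which gave 4 mature arms (miR-298-5p, miR-298-3p, miR-296-5p and miR-296-3p) of the 1148 mature miRNA names in the count tables. The arms were chosen by their levels in aged against young vehicle animals in these same libraries, where miR-298-5p and miR-296-5p were known to be lower in aged animals, so that comparison is given here as a description with no test. Small RNA was sequenced from the CA1 subregion of the hippocampus of mice that the labels give as WT (wild type) and as strain C57B/6JRj. The groups were 6 libraries from animals of 20 months given SAHA (0.67 g per L of drinking solution, in 18 g per L of cyclodextrin), 5 libraries from animals of 20 months given the cyclodextrin vehicle alone, and 8 libraries from animals of 3 months given the same vehicle. The aged animals were treated by mouth for 4 weeks, and cyclodextrin was shared by all 3 groups. Sex and sequencing batch are not among the labels used here. SAHA (vorinostat) inhibits histone deacetylases, enzymes that remove acetyl groups from histones. The labels number the libraries but do not say whether each came from a separate animal, so p-values measure the spread between these libraries.

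As background, a miRNA precursor is a hairpin from which the enzyme Dicer releases a 5p and a 3p arm, and the arm that is kept guides repression of mRNAs that pair with its seed, bases 2 to 8. Imprinted genes are expressed from the maternal or the paternal chromosome only. At the Gnas locus the maternal chromosome expresses Nesp, while the paternal chromosome expresses Gnasxl and the antisense transcript Nespas, and miR-296 and miR-298 have been described as paternally expressed small RNAs of the same domain. miR-298 represses Bace1, the protease that starts the release of amyloid beta, in mouse cells. miR-296 is known for repressing Nanog in mouse embryonic stem cells and for a role in growth-factor signalling of human endothelial cells.

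The mature sequences are shown because the seed decides which mRNAs each arm can pair with. They are from RefSeq (GRCm38.p6, all on the minus strand of chromosome 2), written 5′ to 3′ with the seed in capitals.
miR-298-5p: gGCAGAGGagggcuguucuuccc
miR-298-3p: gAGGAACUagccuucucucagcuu
miR-296-5p: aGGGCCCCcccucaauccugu
miR-296-3p: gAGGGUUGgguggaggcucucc
The 4 seeds differ from each other, and none of the 891 names of the count table that matched a RefSeq mature sequence shared a seed with any of them. The longest run of bases shared by any pair of arms was 5 bases. The hairpins show where the arms, here in capitals, sit within each precursor.
Mir298: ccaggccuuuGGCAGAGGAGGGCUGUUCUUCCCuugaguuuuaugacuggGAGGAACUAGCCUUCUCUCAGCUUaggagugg
Mir296: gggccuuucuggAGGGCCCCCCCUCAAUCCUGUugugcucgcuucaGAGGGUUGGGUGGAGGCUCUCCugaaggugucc
All arms but miR-298-3p are rich in G and C, with 65.2% in miR-298-5p, 66.7% in miR-296-5p and 68.2% in miR-296-3p. miR-298-3p has 50%.

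In the GRCm38 build, Mir298 spans chr2:174267504-174267585 and Mir296 spans chr2:174267047-174267125, with 378 bases between them. Both lie outside the spans of Nespas and Gnas in the GENCODE annotation, and overlap with all other annotated genes was not checked. Nespas, on the same strand (chr2:174281237-174295436), ends 13651 bases before Mir298 begins in the direction of transcription. Gnas lies on the plus strand (chr2:174284320-174346744), and its annotated start is 16734 bases from Mir298.

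The reads assigned to miRNAs numbered 4211365 to 5410804 per library in aged SAHA, 4642434 to 5249168 in aged vehicle and 3585489 to 6808281 in young vehicle. Levels are given as CPM, the count as parts of a fixed library total, after TMM scaling, a correction for library composition. A read covers a mature arm once, so CPM needs no length correction, but how well each sequence is captured by the library adapters is not corrected for, and levels of different arms are set side by side only as read numbers. Neuron-enriched miRNAs (4 of 4 in the table, among them miR-124-3p and miR-128-3p) summed to 66828 to 87958 CPM over all libraries, and none of them was at 0 in any group. In bulk tissue, fewer cells of a type and less RNA per cell cannot be told apart.

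miR-298-5p gave 28903 of the 28925 reads of its precursor and was by far the most read of the 4 arms. It had 253, 250, 258, 231, 230 and 297.98 CPM in aged SAHA libraries 1 to 6 (lowest 230, median 252, highest 297.98). In aged vehicle libraries 1 to 5 it had 188, 185, 195, 238 and 213 CPM. Young vehicle libraries ran from 290 to 639 CPM with a median of 348 CPM. The order of the group medians was therefore young vehicle, aged SAHA, aged vehicle, and the highest value came from young vehicle 8, where the next highest young library had 360 CPM. These levels rested on 924 to 3640 counts per library, and miR-298-5p ranked between 99 and 169 by count among the 1148 names. The spread between libraries exceeded counting error in every group, with a coefficient of variation of 9.75% in aged SAHA, 10.8% in aged vehicle and 28.8% in young vehicle, where counting alone gives 2.81%, 3.14% and 2.22%.

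miR-296-5p, the more abundant arm of Mir296, had 4.62, 5.73, 4.68, 4.65, 4.03 and 3.79 CPM in aged SAHA libraries 1 to 6. Aged vehicle libraries 1 to 5 had 4.30, 5.99, 3.32, 4.93 and 5.26 CPM. In young vehicle libraries the lowest value was 6.80, the median 8.40 and the highest 13.5 CPM, the highest again in young vehicle 8. All aged libraries, with or without SAHA, lay below all young ones, and the aged groups overlapped each other. How many other miRNAs separated aged from young libraries as fully was not counted. The counts were low, 16 to 77 per library. The spread within the aged SAHA group (coefficient of variation 14.7%) was no larger than the 20.8% that counting alone gives at a mean of 23.2 counts, and in aged vehicle it was close to counting error (21.2% beside 20.5%). In young vehicle it was 23.0%, beside 14.4% from counting.

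miR-296-3p, the less abundant arm, had 1.93, 2.10, 2.16, 1.27, 1.53 and 2.13 CPM in aged SAHA libraries 1 to 6. Aged vehicle libraries 1 to 5 had 0.978, 2.20, 1.24, 2.36 and 1.88 CPM. Young vehicle libraries ran from 1.48 (young vehicle 4) to 5.09 CPM (young vehicle 8) with a median of 3.20 CPM. All 3 groups overlapped. It was seen at 5 to 29 counts per library and reached the low-count limit of 1.91 CPM, applied before TMM scaling, in 3 of 6 aged SAHA, 3 of 5 aged vehicle and 7 of 8 young vehicle libraries.

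miR-298-3p was close to undetected. It had 8 counts in all over the 6 aged SAHA libraries, 3 over the 5 aged vehicle libraries and 11 over the 8 young vehicle libraries, never more than 3 in a library. In the 7 libraries with 0 counts, the limit that a count of 0 allows (3 counts) is 0.547 to 0.837 CPM of the unscaled library total. It did not reach the low-count limit in any library and was not tested, so 3 of the 4 arms were tested.

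**Figure D1:**
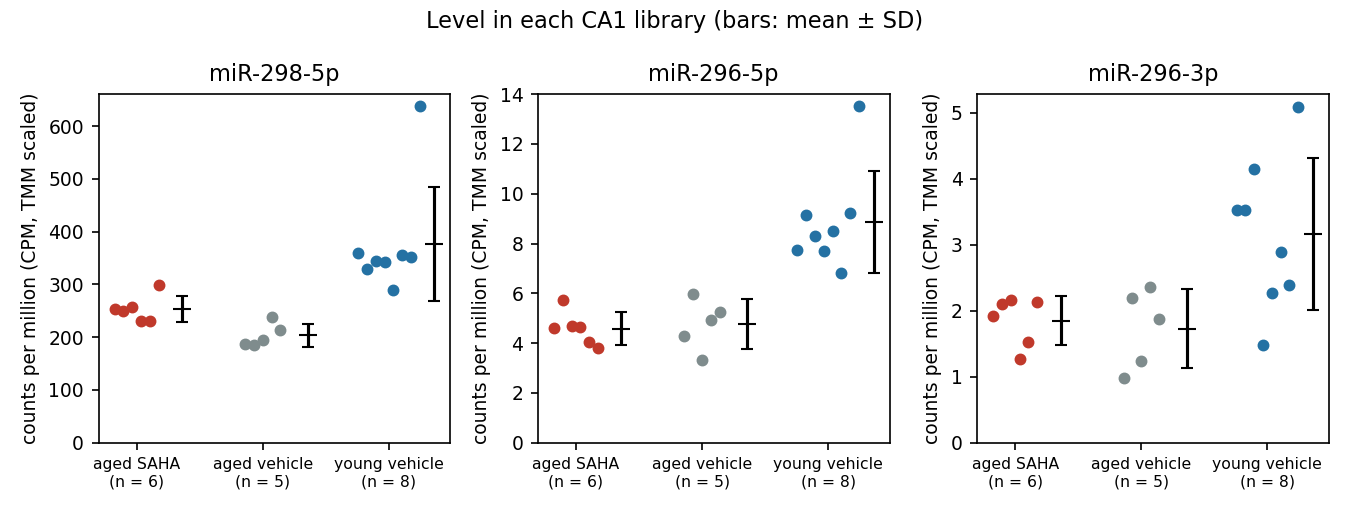
Level of miR-298-5p, miR-296-5p and miR-296-3p (CPM, linear axes from 0) in each CA1 library of aged SAHA (n = 6), aged vehicle (n = 5) and young vehicle (n = 8) animals; points are libraries and bars are the mean ± SD. All aged libraries lie below the young ones for miR-296-5p, and young vehicle 8 is the highest point in each panel (639, 13.5 and 5.09 CPM). How many other miRNAs separate the groups as fully was not counted.

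The share of reads on each arm overlapped between the groups. Of the reads of Mir298, 99.9% ± 0.11 came from the 5p arm in aged SAHA, 99.9% ± 0.055 in aged vehicle and 99.9% ± 0.051 in young vehicle (SD, n = 6, 5 and 8). Mir296 gave reads from both arms, with 71.2% ± 4.89 on the 5p arm in aged SAHA, 73.7% ± 4.96 in aged vehicle and 74.1% ± 5.99 in young vehicle. The ranges over libraries overlapped (64.0% to 78.6%, 67.6% to 81.5% and 66.7% to 83.9%). Summed over the group, the share was 71.3% (95% Wilson interval 64.6% to 77.2%) in aged SAHA, 73.5% (66.2% to 79.7%) in aged vehicle and 73.5% (69.6% to 77.1%) in young vehicle, and each group's value lay inside the intervals of the others. These intervals cover counting error only, because reads carry no molecular identifiers.

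miR-298-5p was read many times more often than miR-296-5p, although the precursors are neighbours. The number of miR-298-5p counts per miR-296-5p count was 43.7 to 78.7 in aged SAHA (median 55.0), 30.8 to 58.9 in aged vehicle (median 43.6) and 34.2 to 52.3 in young vehicle (median 42.9). The groups overlapped, and 1 SAHA library (78.7, aged SAHA 6) lay above all other values. That library had both the highest miR-298-5p and the lowest miR-296-5p level of its group, and its miR-296-5p level rested on 16 counts.

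**Figure D2:**
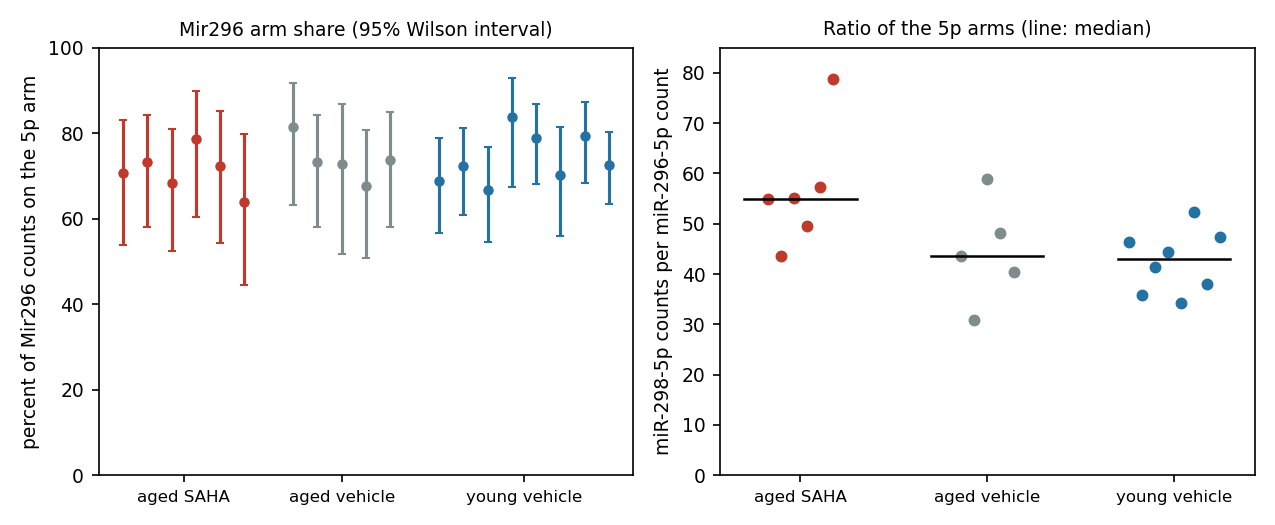
Left, percent of Mir296 counts on the 5p arm in each library with its 95% Wilson interval; right, miR-298-5p counts per miR-296-5p count in each library, with the group median as a line. Groups are aged SAHA (n = 6), aged vehicle (n = 5) and young vehicle (n = 8). The arm shares overlap (64.0% to 83.9% over all libraries), and the highest ratio, 78.7, is an aged SAHA library.

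The drug comparison asks whether SAHA changed these miRNAs in aged CA1. No arm passed the threshold, an adjusted p under 0.05. miR-298-5p averaged 253 ± 24.7 CPM in aged SAHA and 204 ± 21.9 CPM in aged vehicle (SD, n = 6 and 5), a log2 fold change of 0.32 ± 0.15 (SE). This is a 1.24-fold difference with a 95% interval of 1.01 to 1.54, and 4 of 6 SAHA libraries lay above all 5 vehicle libraries. The share of all tested miRNAs that separated these groups as far was not counted. Its unadjusted p was 0.0436 and its adjusted p 0.236 (edgeR quasi-likelihood test, Benjamini-Hochberg adjustment over 509 miRNAs). This verdict changed when a library outside the comparison was left out. Without young vehicle 8, which enters the estimate of the spread, the log2 fold change was 0.31 ± 0.08 and the adjusted p 0.0334 (edgeR). Over the other 18 libraries left out in turn and 10 other alternatives the adjusted p was 0.0586 to 0.403. The lowest of these came from edgeR on only the 2 groups compared, a fit without any young library, where miR-298-5p was not called (0.33 ± 0.09).

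miR-296-5p averaged 4.58 ± 0.675 CPM in aged SAHA and 4.76 ± 1.01 CPM in aged vehicle, a log2 fold change of -0.052 ± 0.19 with a 95% interval of -0.45 to 0.35 (adjusted p 0.879 by edgeR). miR-296-3p averaged 1.85 ± 0.369 CPM in aged SAHA and 1.73 ± 0.599 CPM in aged vehicle, a log2 fold change of 0.10 ± 0.31 with an interval of -0.54 to 0.74 (adjusted p 0.868 by edgeR). The intervals allow changes of either sign for both Mir296 arms, and those intervals contain the value measured for miR-298-5p. In this comparison 22 of 509 tested miRNAs were called (4.32%, with 1.18% higher and 3.14% lower), beside 0 of the 3 tested arms. The aged vehicle libraries are shared with the comparison that chose the arms. Choosing arms that were low in those libraries favours a higher value in aged SAHA, and the p-values do not allow for this. The summed neuron-enriched miRNAs did not overlap between these groups, at 66828 to 72282 CPM in aged SAHA and 78879 to 83605 CPM in aged vehicle, none of the 4 at 0, and their part in these values was not tested.

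The comparison of aged SAHA with young vehicle asks whether treated aged animals differed from young ones. The groups differ in both age and SAHA, which cannot be told apart in this comparison. All 3 tested arms were lower in aged SAHA. miR-296-5p was at 4.58 ± 0.675 CPM in aged SAHA and 8.87 ± 2.04 CPM in young vehicle, a log2 fold change of -0.95 ± 0.16 (adjusted p 0.000394 by edgeR), and all 6 SAHA libraries lay below all 8 young libraries. The share of all tested miRNAs that separated these groups as fully was not counted. miR-298-5p was at 253 ± 24.7 CPM in aged SAHA and 376.4 ± 108 CPM in young vehicle, a log2 fold change of -0.57 ± 0.13 (adjusted p 0.00555 by edgeR), with 5 of 6 SAHA libraries below all young ones. The exception was aged SAHA 6, at 297.98 CPM, above young vehicle 5 at 290 CPM. miR-296-3p was at 1.85 ± 0.369 CPM in aged SAHA and 3.17 ± 1.15 CPM in young vehicle (-0.78 ± 0.25, adjusted p 0.0375 by edgeR), with 1 of 6 SAHA libraries below all young ones. The summed neuron-enriched miRNAs separated these groups as well, at 66828 to 72282 CPM in aged SAHA and 77929 to 87958 CPM in young vehicle, none of the 4 at 0, and their part in these falls was not tested.

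By size of fall among the 509 tested miRNAs, miR-296-5p ranked 2, miR-296-3p 5 and miR-298-5p 11. Of all tested miRNAs, 44 were called lower (8.64%) and 27 higher (5.3%) in aged SAHA than in young vehicle. The young libraries are shared with the comparison that chose the arms, so the young side of this difference is not independent of the choice. Only the aged SAHA libraries are. Choosing arms that were high in the young libraries favours a lower value in aged SAHA, and the p-values and ranks do not allow for this. Leaving out young vehicle 8 made the differences smaller but kept the calls of the 5p arms, at -0.42 ± 0.08 for miR-298-5p (adjusted p 0.00112) and -0.84 ± 0.14 for miR-296-5p (adjusted p 0.000639, edgeR). The call of miR-296-3p ended when any of 7 libraries was left out (aged SAHA 2, 4 or 5, or young vehicle 1, 2, 3 or 8; highest adjusted p 0.0883). For miR-298-5p and miR-296-5p the adjusted p stayed at or below 0.0188 and 0.00304 in all leave-one-out fits and other alternatives in which they were tested.

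In aged vehicle, the values by which the arms came to be described were 204 ± 21.9 CPM against 376.4 ± 108 CPM in young vehicle for miR-298-5p (log2 fold change -0.89 ± 0.14). They were 4.76 ± 1.01 against 8.87 ± 2.04 CPM for miR-296-5p (-0.90 ± 0.17) and 1.73 ± 0.599 against 3.17 ± 1.15 CPM for miR-296-3p (-0.89 ± 0.27). The log2 values of the 3 arms were nearly equal, and all 5 aged vehicle libraries lay below all 8 young ones for both 5p arms, while 2 of 5 did for miR-296-3p. Here too, the share of all tested miRNAs that separated as fully was not counted. Of all tested miRNAs, 11 (2.16%) were called in this comparison, 10 of them lower (1.96%), and nothing is read from this about the arms it chose. Beside this, aged SAHA against young vehicle gave -0.57 for miR-298-5p, -0.95 for miR-296-5p and -0.78 for miR-296-3p. Both comparisons share the young libraries.

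**Figure D3:**
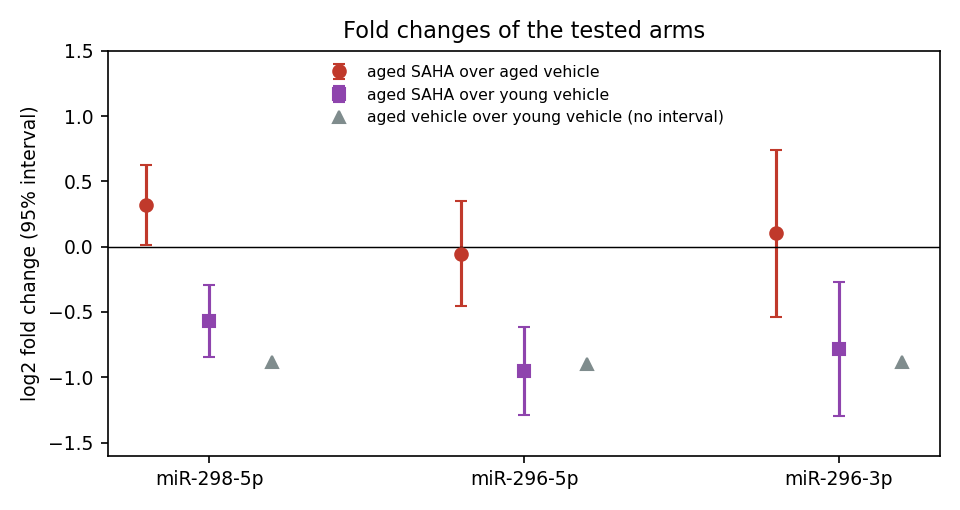
Log2 fold changes of the 3 tested arms by edgeR: aged SAHA over aged vehicle (circles) and aged SAHA over young vehicle (squares), each with its 95% interval, and aged vehicle over young vehicle (triangles), drawn without an interval because it chose the arms. The squares lie below 0 for all 3 arms (-0.57, -0.95 and -0.78), and the circles at 0.32, -0.052 and 0.10.

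Young vehicle 8 stood out at this locus. Its level was 1.88 times the mean of the other 7 young libraries for miR-298-5p, 1.65 times for miR-296-5p and 1.76 times for miR-296-3p, which ranked 5, 14 and 9 among the same ratios of 509 miRNAs. The mean correlation of log2 CPM across miRNAs between this library and the other young ones was 0.994, and the other young libraries gave 0.993 to 0.995 in the same way. In it 7 tested miRNAs lay far above the other young libraries by Dixon's criterion, where the other young libraries had 1 to 18. Its neuron-enriched, choroid plexus and erythrocyte marker sums (80763, 3298 and 3300 CPM) lay within the range of the other young libraries, and its microglia and immune marker sum (9.48 CPM) was the lowest of the group. Their part in these values was not tested.

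Within groups the arms of the neighbouring precursors were set against each other. Over the 8 young libraries, log2 CPM of miR-298-5p and miR-296-5p gave Pearson r = 0.79 (exact permutation p = 0.098, adjusted over 2 groups 0.196) and Spearman rho = 0.07 (exact permutation p = 0.882, adjusted 0.882). Without young vehicle 5 and 8, the libraries farthest from the median of miR-298-5p, r was -0.53 over 6 libraries (0.28 with library-size scaling), so the relation rested on those libraries. Over the 6 aged SAHA libraries r was -0.33 (exact permutation p = 0.492, adjusted 0.492) and rho -0.14 (exact permutation p = 0.803, adjusted 0.882), and without the 2 farthest libraries r was 0.13 over 4 libraries. With library-size scaling other libraries were the farthest (3 and 6 in place of 5 and 6), and r without them was 0.83. Coefficients were computed only for groups of at least 6 libraries, so aged vehicle has none. The precision is limited by the 16 to 77 counts of miR-296-5p.

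**Figure D4:**
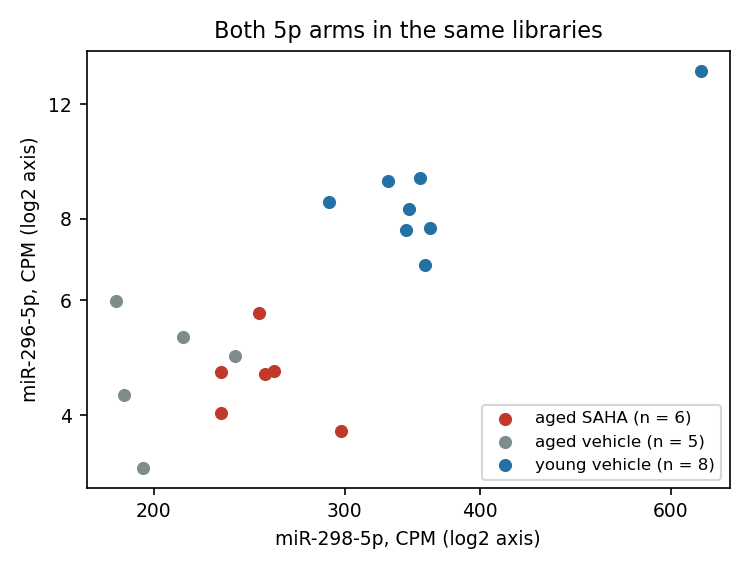
CPM of miR-298-5p (x, log2 axis) and miR-296-5p (y, log2 axis) in the same libraries of aged SAHA (n = 6), aged vehicle (n = 5) and young vehicle (n = 8). Young libraries lie apart from both aged groups on the y axis (6.80 CPM and above), and young vehicle 8 lies alone at 639 and 13.5 CPM.

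As a description of likeness, log2 CPM of each tested miRNA was set against that of miR-298-5p after each group's mean was subtracted, over the 19 libraries, which share library depth and composition. The 5 highest Spearman coefficients belonged to miR-700-3p (0.63), miR-383-5p (0.62), miR-666-5p (0.61), miR-346-5p (0.60) and miR-652-3p (0.59). miR-296-3p ranked 20 of 508 with 0.45 and miR-296-5p ranked 160 with 0.13. This order depended on young vehicle 8. Without it miR-383-5p ranked 3, miR-652-3p 5, miR-666-5p 7, miR-700-3p 15 and miR-346-5p 20, while miR-296-3p ranked 22 and miR-296-5p ranked 374 with a coefficient of -0.14. None of the 5 miRNAs named first passed the threshold in either comparison that involves SAHA (adjusted p 0.0882 to 0.979 by edgeR).

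Other imprinted loci with miRNAs were read from the same fit, and their lists were chosen with earlier results of these data known. The Dlk1-Dio3 cluster on chromosome 12, a large set of maternally expressed miRNAs, had 80 tested members of 113 names. In aged SAHA against young vehicle 9 fell and 0 rose (11.3%). Of all tested miRNAs, 13.9% were called there, 8.64% lower and 5.3% higher. The median log2 fold change of the cluster was -0.054 beside -0.028 over all tested. The falls with the smallest p were miR-673-5p (-0.48 ± 0.07, adjusted p 0.000238), miR-127-3p, which is transcribed antisense to Rtl1 and represses it (-0.32 ± 0.06, adjusted p 0.00081), and miR-485-3p (-0.37 ± 0.09, adjusted p 0.00783). Against aged vehicle 8 fell and 0 rose (10%), while the median was 0.013 and 42 of 80 values were positive. Of all tested miRNAs, 4.32% were called there, 3.14% lower and 1.18% higher. The fall with the smallest p was miR-379-3p at 126.9 ± 13.4 CPM in aged SAHA and 183.6 ± 27.2 CPM in aged vehicle (-0.53 ± 0.11, adjusted p 0.0042). Between aged and young vehicle 0 of 80 were called. All these values are by edgeR.

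The intronic Sfmbt2 cluster, a paternally expressed set known from placenta, had 6 tested members of 80 names. In aged SAHA against young vehicle all 6 values were negative, with a median of -0.72 beside -0.028 over all tested. Of these, 3 were called lower (50%, where 8.64% of all tested miRNAs were called lower): miR-669a-3p (1.42 ± 0.103 CPM in aged SAHA and 2.98 ± 0.702 CPM in young vehicle, -1.03 ± 0.21, adjusted p 0.00167), miR-467a-5p (-0.69 ± 0.16, adjusted p 0.00401) and miR-669c-5p (-0.78 ± 0.21, adjusted p 0.0163, edgeR). The aged SAHA mean of miR-669a-3p lay below the low-count limit of 1.91 CPM and its young mean above it. Its test thus leaned on libraries where it was higher, and its fall is not independent of that filter. Counts over all 19 libraries were as low for miR-669a-5p (158) and miR-467e-5p (209) as for miR-669a-3p (210). Which groups carried those members past the filter was not checked. The 6 negative values, their median and the share called are therefore not read as independent of the filter. Many members of this cluster are near-identical copies, and no source used here says how reads matching several of them were counted. Aged vehicle against young vehicle also gave 6 negative values (median -0.50), of which 0 were called, and shares the young libraries. In aged SAHA against aged vehicle 0 of 6 were called (median -0.13). At Mest, a paternally expressed gene, miR-335-5p and miR-335-3p did not pass in any comparison (adjusted p 0.116 to 0.892 by edgeR). At Igf2, miR-483-3p was at 2.18 ± 1.19 CPM in aged SAHA, 1.77 ± 1.09 CPM in aged vehicle and 2.01 ± 0.734 CPM in young vehicle. miR-184-3p, from the Rasgrf1 region, was at 11.8 ± 3.09 CPM in aged SAHA, 16.7 ± 14.8 CPM in aged vehicle and 9.20 ± 5.53 CPM in young vehicle. Neither passed in any comparison (adjusted p 0.321 to 0.887 by edgeR).

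**Figure D5:**
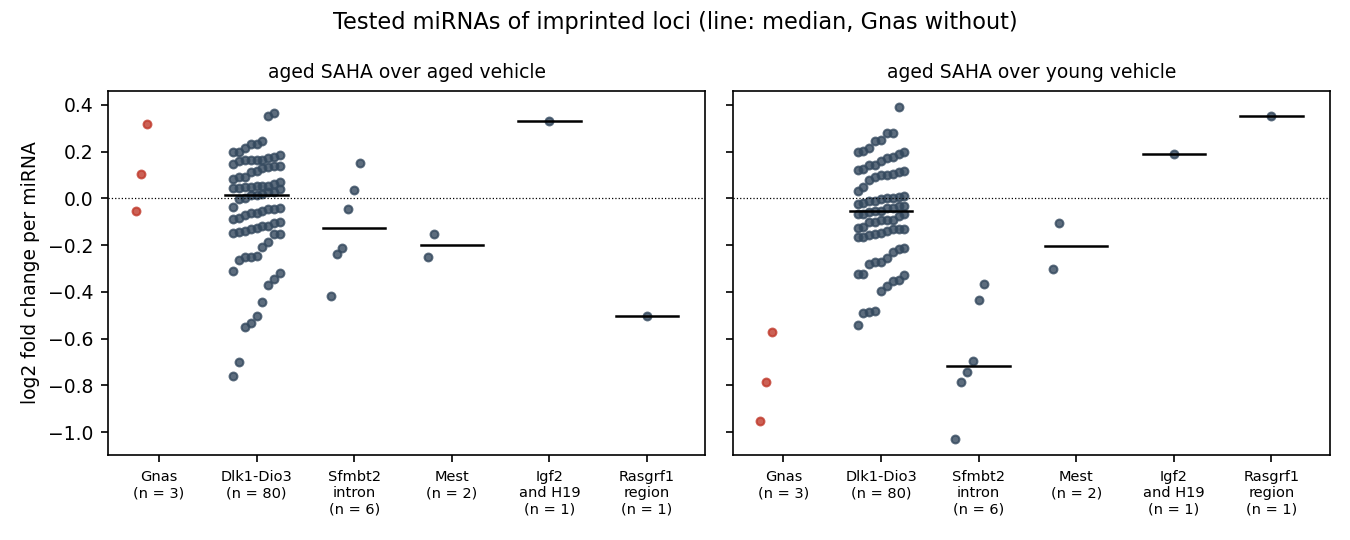
Log2 fold change of each tested miRNA of 6 imprinted loci in aged SAHA over aged vehicle (left) and aged SAHA over young vehicle (right). Lines are medians, drawn for every locus but Gnas. The 3 Gnas arms were chosen by aged against young vehicle, and the lists of the other loci were also chosen with earlier results known. On the right the 3 Gnas arms lie at -0.57 to -0.95 and the Sfmbt2 members around -0.72, while the Dlk1-Dio3 members centre on -0.054.

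Other miRNAs near the locus with a single precursor position were too rare to test. Those with several precursor positions, and names without a RefSeq match, were not looked at. Within 10 Mb of Mir296 the table held 3 other names with a single precursor position, miR-3091-5p, miR-3091-3p and miR-1a-1-5p. They had 8, 11 and 1 counts over all 19 libraries, and none was tested.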

How the data were processed

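Small RNA-seq libraries of CA1 were grouped by their labels. The deposited tables hold raw read counts that the authors had not scaled, with a line for every mature miRNA. Per the submitters' processing notes, CASAVA 1.8.2, cutadapt, STAR, HTSeq and mm10 were used. Their settings and the miRNA annotation release are not given in the sources used here, and reads without a miRNA cannot be counted because the 4 HTSeq summary lines, left out, were all 0. From the counts, edgeR 4.0.16 (R 4.3.3) kept 509 names (filterByExpr, minimum count 10, minimum total 15), leaving 639 untested, and scaled them by TMM. All 19 libraries entered a single quasi-likelihood model (robust) with group as the only term. Calls were made at an adjusted p under 0.05, with the Benjamini-Hochberg method run separately in every comparison. Standard errors were derived from the F statistic and the log2 fold change. Log2 CPM used in correlations had a prior count of 2. Wilson intervals cover counting error only, whereas those of fold changes come from the model.

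Arms, lists and naming rules were chosen with earlier results of these data known. Named were the 4 arms, the 5 miRNAs most like miR-298-5p, and at most 3 called miRNAs per imprinted locus and direction, or all tested ones at small loci. Within groups, no pair of libraries looked like repeats of the same library (chi-square per degree of freedom at least 18.2 over 53 within-group pairs). The model was tested on simulated data. Alternatives were other scalings, filters and tests (DESeq2 1.42.0, limma-voom in limma 3.58.1), libraries left out, only the groups compared, and the replicate number as a block.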

Additional observations from a re-analysis of the deposited data

Results flagged for a closer look

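Young vehicle 8 lay far above the other 7 young libraries for miR-298-5p (639 CPM against 290 to 360 CPM, a gap to the next library of 0.80 of the group's range, past Dixon's 95% critical value for 8 samples). The same library lay far above the others for miR-296-5p (13.5 CPM against 6.80 to 9.23 CPM, a gap of 0.64 of the range, also past it). Such gaps were looked for in 21 sets of values and found in these 2, and chance alone gives about 1 in 20.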

How the results depend on the processing

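Results for miR-298-5p and miR-296-5p in aged SAHA against young vehicle kept their direction and call in every alternative in which they were tested. miR-296-3p lost its call there with no filter (-0.77), limma-voom (-0.77), only the groups compared (-0.75), aged SAHA 1 and young vehicle 6 left out together (-0.82, an alternative chosen after seeing the data) and the replicate number as a block (-0.69, adjusted p 0.101), and ranged from -0.86 to -0.65 with 1 library left out. In SAHA against aged vehicle, leaving out 1 library gave 0.26 to 0.38 for miR-298-5p (called only without young vehicle 8, so 0 to 1 arms called), -0.17 to 0.049 for miR-296-5p and -0.045 to 0.23 for miR-296-3p, the last 2 changing sign without aged vehicle 2 or 5 and 1 or 3. The filter of CPM of 10 in 5 libraries removed both Mir296 arms, leaving 1 called arm in aged SAHA against young vehicle. Over the whole table the calls for SAHA against aged vehicle, 22, were 46 with DESeq2 and 46 with limma-voom, 37 with the pair of libraries left out and 11 to 33 with 1 left out; those for aged against young vehicle, 11, were 20, 23 and 18, and 19 with only the groups compared. Whether the replicate numbers pair the libraries is not settled. Same-numbered libraries correlated in their deviations at -0.32 to 0.31, with medians of -0.11 to 0.061 over 5 or 6 pairs. Differently numbered libraries were not set beside them. The block gave 15, 58 and 8 calls against 22, 71 and 11. Numbers 7 and 8 occur only in young vehicle, so the block also takes those libraries out of the comparisons. The median of all tested miRNAs stayed between -0.036 and 0.029 in all fits. DESeq2 gave no adjusted p for miR-296-3p in SAHA against aged vehicle. The cause of these changes was not tested, apart from the arms removed by the stricter filter. Depth limits miR-298-3p, which could not be tested, and both Mir296 arms.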
